A study of Mus musculus with 11 samples.

Results

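The kinesins are the family of motor proteins that use ATP to move along microtubules or to take their ends apart. In mouse mammary tumour cells they were followed here through 3 stages of disease. Members were chosen by symbol alone, as Kif with a number and an optional suffix or Kifc1 to Kifc3, and 40 of the 23835 named genes on the array qualified. By role, 12 are known for work in mitosis and cytokinesis, 15 for moving cargo, and the other 13 for other or less studied work. Kif19b and Kif25 were not analysed here.

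In a dividing cell, mitotic kinesins push spindle poles apart, move and align chromosomes, and build the midzone at which the cell is cut in 2. Their transcripts are known to build up from late S phase to mitosis and to be low in resting cells. Transport kinesins carry vesicles, organelles, proteins and RNA in cells that divide and in cells that do not. Some of them, such as the Kif5 and Kif1 motors, are best known from axons, and Kif3 motors also build cilia.

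The cells came from a Wnt1-driven mammary tumour model and were measured on 11 expression arrays. In all groups they carried MMTV-rtTA and TetO-Wnt1, in which the mammary tumour virus promoter, active in mammary epithelium, drives a transactivator that switches on Wnt1 while doxycycline is given. They also carried an H2B-eGFP label and were grown in the mammary gland of female nu/nu mice, which lack mature T cells, and the sample titles call them GFP plus. Primary tumour cells, from untreated tumours with the oncogene on, made up 4 arrays. Residual lesion cells, taken 28 days after doxycycline was withdrawn, made up 3 arrays. Recurrent tumour cells made up 4 arrays, and no day after withdrawal is recorded for them. The series title names the cells Wnt1-Prim1. No ages are given in the labels. Nor do they tie the arrays of a group to different animals, and p-values therefore reflect how far these samples scatter, a scatter that may be technical.

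Values are the authors' log2 signals, and each probe set has its own scale, so levels of single genes are compared between arrays. The background calls below, the bounds drawn from them and signals summed or averaged over lists do set genes side by side. They carry the limit that scales differ between genes. Olfactory receptor genes, 1066 of them, served as a ruler of background, and a gene was called at background on an array where it did not pass their 95th percentile there. The residual arrays stood apart in this measure, with a 95th percentile of 4.34 to 4.38, against 4.03 to 4.09 on the recurrent arrays and 3.96 to 4.02 on the primary arrays. A signal between these ranges thus counts as background in residual cells and not in the others. Over all probe sets the residual arrays also spread less. Their interquartile range was 3.52 to 3.57, against 3.67 to 3.74 on the recurrent arrays and 3.73 to 3.81 on the primary arrays. This array-wide difference cannot be told apart from the stage. Wnt1 read 3.23, 3.04 and 3.10 on the residual arrays, 2.89, 3.02, 3.05 and 3.26 on the recurrent arrays, and 3.04, 3.07, 2.98 and 3.05 on the primary arrays. These values lie within background in every group, and since the probes may lie outside the transgene's transcript they check nothing about the oncogene. Of 14 epithelial markers, 2 were called higher in residual than in primary cells (Krt14 and Cldn4), against 4.81% of all genes. In the same comparison 3 were called lower (Krt8, Krt18 and Cldn3), against 7.61% of all genes, and 9 in neither direction. The median log2 difference of the 14 was 0.47. Epcam, Esrp1, Cldn4 and Cldn7 were at background on all primary and recurrent arrays and above it on at least 1 residual array, while Krt17 was at background on all 11. Residual array 2 stood apart in this list, with a mean log2 signal of 6.41, against 5.48 and 5.39 on residual arrays 1 and 3, 4.90 to 5.39 on the recurrent arrays and 5.53 to 5.63 on the primary arrays.

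In residual against primary cells, all 12 mitotic kinesins were lower (limma, adjusted p under 0.05), against 7.61% of all genes tested that were called lower. Their median log2 difference was -2.43, while that of all genes was 0.03. For 11 of the 12 the residual and primary arrays did not overlap, where 13.7% of all genes were lower without overlap. Of the 15 transport kinesins 2 were higher, 1 was lower and 12 were not called, and of the other 13 kinesins 1 was higher, 1 was lower and 11 were not called. Kif2a, Kif2b and Kif24, which can also be counted as mitotic, were placed among the other kinesins with earlier results known. Of these, Kif2a was called lower (log2 difference -0.55), and Kif2b (0.31) and Kif24 (-0.21) were not called, so the full count of mitotic kinesins depends on this grouping. Without residual array 2, 11 of the 12 mitotic kinesins were called lower, the exception being Kifc1. Called higher were 4.81% of all genes. At an unadjusted p under 0.05 there were 21 of the 40 kinesins, against 25.8% of all genes.

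**Figure D1:**
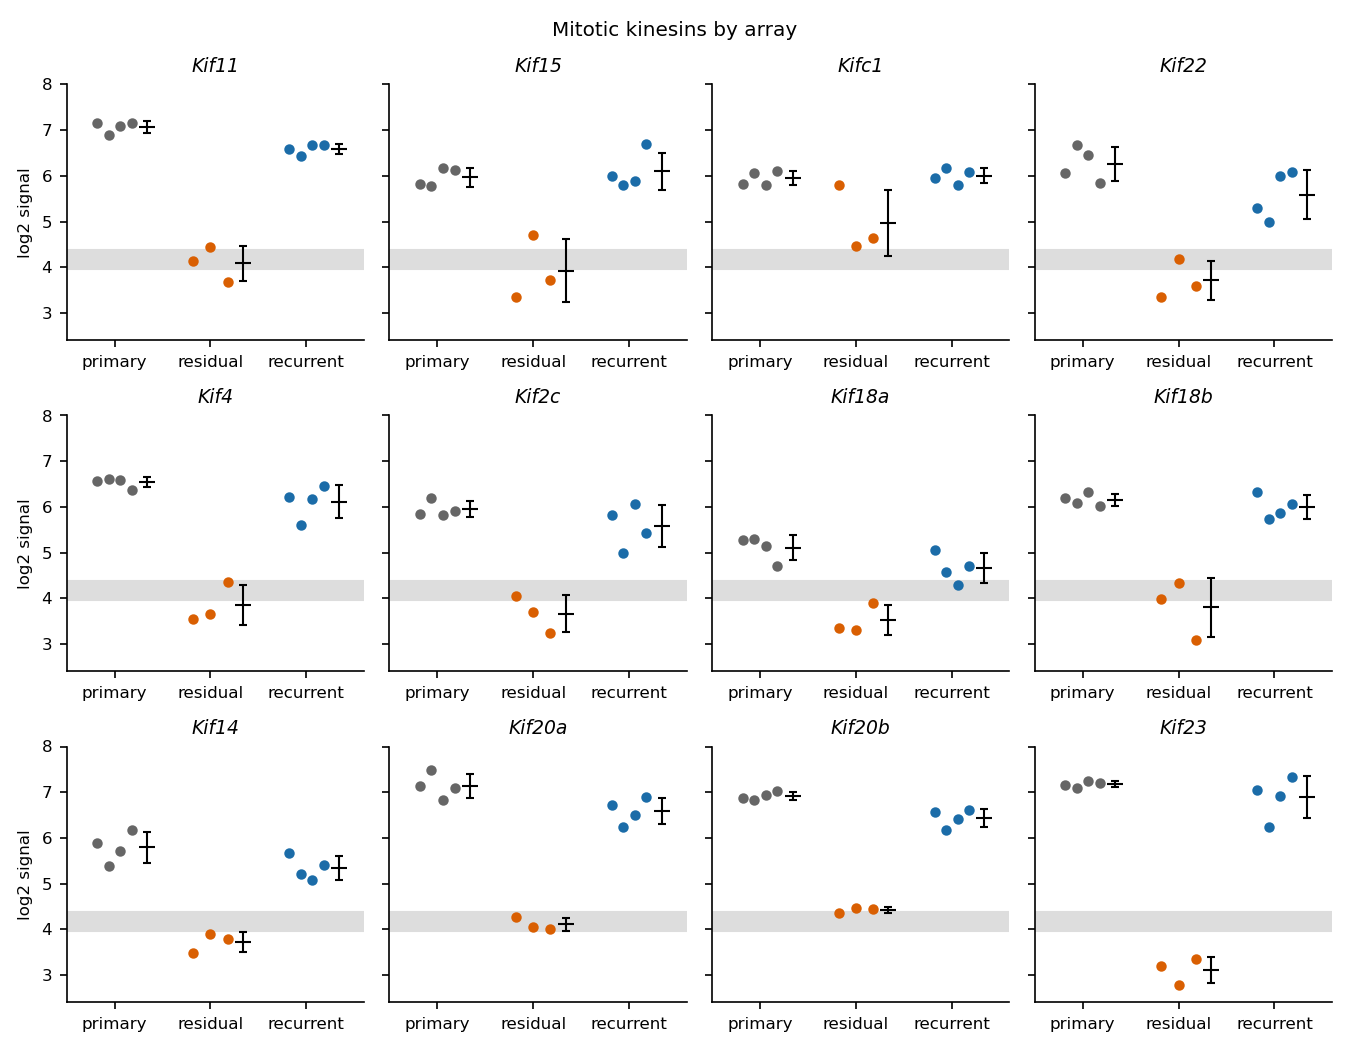
Log2 signal (vertical axis) of each of the 12 mitotic kinesins, by group. Points are arrays, the bar beside them is the group mean and SD, and the grey band is the range over arrays of the olfactory receptor 95th percentile. For all but Kifc1 the 3 residual arrays lie below every recurrent and primary array.

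The kinesins that hold the spindle bipolar come first. Kif11 pushes antiparallel microtubules apart and so separates the poles. It read 4.13, 4.44 and 3.68 in residual cells, against 7.16, 6.89, 7.10 and 7.15 in primary cells. The groups were far apart, and only 1 residual array was above background. The log2 difference of the measured means was -2.99 ± 0.17 (SE), with an adjusted p of 9.73e-07 in limma. Kif15, which helps to keep poles apart, read 3.35, 4.70 and 3.72 in residual cells, against 5.81, 5.78, 6.17 and 6.12 in primary cells. Residual arrays were again all lower, though residual array 2 stood above background. The log2 difference of its measured means was -2.05 ± 0.30 (SE, adjusted p = 0.00111 in limma). For Kif11, Kif15 and Kif4, 2 of 3 residual arrays were at background, so the size of these differences is uncertain.

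Kifc1, a minus-end-directed motor that gathers microtubules into poles, was the exception among the 12. It read 5.80, 4.47 and 4.65 in residual cells, against 5.83, 6.07, 5.80 and 6.10 in primary cells. Residual array 1 equalled primary array 3, the lowest of its group, and the other 2 residual arrays lay below the primary range. The log2 difference was -0.98 ± 0.27 (SE, adjusted p = 0.0331 in limma), and it became -1.39 with an adjusted p of 0.000466 when residual array 1 was left out. The call was lost under 8 of 21 alternatives, with an adjusted p of up to 0.128, among them leaving out residual array 2 or 3 or any 1 of the 4 primary arrays. Kifc5b, a close copy of Kifc1 that may share its probes' targets, was not called in this comparison (log2 difference -0.57, adjusted p = 0.460 in limma).

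The kinesins that act on chromosomes and on microtubule ends were all lower. Kif4, a chromosome-bound motor that also works at the midzone, read 3.56, 3.66 and 4.36 in residual cells, against 6.56, 6.62, 6.59 and 6.37 in primary cells. The log2 difference of its measured means was -2.68 ± 0.22 (SE, adjusted p = 2.16e-05 in limma). Every residual array was below every primary array, as was so for the next 4 motors. Kif22, which pushes chromosome arms towards the equator, read 3.36, 4.19 and 3.60 in residual cells, against 6.07, 6.67, 6.45 and 5.85 in primary cells. Kif2c, which removes tubulin from microtubule ends at centromeres, read 4.05, 3.70 and 3.25 in residual cells, against 5.85, 6.20, 5.82 and 5.92 in primary cells. Neither Kif22 nor Kif2c was above background on any residual array. Kif18a, which dampens the swinging of chromosomes at the equator, read 3.35, 3.31 and 3.89 in residual cells, against 5.27, 5.30, 5.15 and 4.71 in primary cells. Kif18b, which shortens the astral microtubules, read 3.98, 4.33 and 3.09 in residual cells, against 6.20, 6.09, 6.32 and 6.02 in primary cells. Both were at background on all 3 residual arrays.

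The kinesins of cytokinesis were lower too. Kif23, the motor subunit of centralspindlin, which bundles midzone microtubules and calls in the contractile ring, read 3.19, 2.79 and 3.35 in residual cells, against 7.15, 7.10, 7.25 and 7.20 in primary cells. Kif20a, which carries the chromosomal passenger complex to the midzone, read 4.28, 4.05 and 4.02 in residual cells, against 7.13, 7.48, 6.82 and 7.09 in primary cells. Residual arrays were at background for both genes. Kif14, which binds Prc1 and citron kinase at the midbody, read 3.49, 3.90 and 3.79 in residual cells, against 5.89, 5.38, 5.72 and 6.18 in primary cells. Kif20b, needed late in the cut between daughter cells, read 4.35, 4.47 and 4.43 in residual cells, against 6.87, 6.82, 6.93 and 7.04 in primary cells. For Kif20b, with 2 residual arrays just above background, the log2 difference was -2.50 ± 0.13 (SE, adjusted p = 5.74e-07 in limma).

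Because 7 of the 12 were within background on every residual array, their differences are bounds, computed from each residual array's olfactory 95th percentile. Here and below, the adjusted p beside a bound belongs to the difference of the measured means, and the bounds themselves were not tested. Kif23 averaged 3.11 in residual cells and 7.18 in primary cells and was at least 7.04-fold lower (adjusted p = 9.32e-07 in limma). Kif20a averaged 4.11 in residual cells and 7.13 in primary cells and was at least 6.82-fold lower (adjusted p = 1.91e-06). Kif22 was at least 3.73-fold lower (means 3.72 in residual and 6.26 in primary cells, adjusted p = 0.000271). Smaller bounds were found for the remaining 4. Kif18b was at least 3.48-fold lower (means 3.80 in residual and 6.16 in primary cells, adjusted p = 0.000123), and Kif2c at least 3.00-fold (3.67 in residual and 5.94 in primary cells, adjusted p = 0.00015). Kif14 was at least 2.70-fold lower (3.73 in residual and 5.79 in primary cells, adjusted p = 6.76e-05), and Kif18a at least 1.68-fold (3.52 in residual and 5.11 in primary cells, adjusted p = 0.000699). With these 7 at their bounds, the median log2 difference of the 12 was -1.97. In bulk RNA, fewer dividing cells and less of a transcript per cell cannot be told apart.

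Markers of other cell types moved in the same comparison. Of 14 fibroblast markers 10 were higher, against 4.81% of all genes, and none was lower, and their summed signal was 10302 to 18412 in residual cells, against 2388 to 3254 in primary cells. Within that list Clec3b was at background on the residual arrays and Fap on the primary arrays. Of 13 macrophage markers 5 were lower, against 7.61% of all genes, and none was higher, with summed signals of 551 to 916 in residual cells and 1235 to 2058 in primary cells. Adgre1 and Itgam were at background on the residual arrays. Their part in the mitotic result was not tested.

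Promoter sequence was looked at because the mitotic kinesins moved together. Late cell-cycle genes are known for a short element near the start site, the CHR, whose usual core is TTTGAA, and for CCAAT boxes bound by the factor NF-Y. RefSeq promoter windows on GRCm38.p6, from 250 bases before to 50 bases after the start, were matched for 32 of the 40 members, of which 11 were mitotic, 10 transport and 11 other kinesins. A gene was counted if any of its windows held the letters. On either strand, TTTGAA was found in 10 of 11 mitotic windows (90.9%), 1 of 10 transport windows (10%), 2 of 11 other windows (18.2%) and 20.2% of all 27025 genes with a window. Between 30 bases before and 30 after the start, a range chosen after positions had been seen, it was found in 8 mitotic windows (72.7%), in 0 transport windows and in that of Kif26b, against 3.39% of all genes. Kif2a, Kif2b and Kif24, which can also be counted as mitotic, held no TTTGAA in their windows. CCAAT was found in 7 mitotic (63.6%), 3 transport (30%) and 5 other windows (45.5%), against 41.1% of all genes. TTTAAA, a variant core, was found in 2 mitotic windows (18.2%), those of Kif14 and Kif2c, and in 14.9% of all genes. A match of letters is a description and shows neither binding nor a cause.

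The 100 bases around the start are shown for the 8 mitotic kinesins with a TTTGAA core near it, for Kif26b, which also has one, and for Kif5c, which has none. Each is written 5′ to 3′ on the gene's own strand, from 70 bases before the start to 30 after it, and capitals mark TTTGAA and CCAAT or their reverse complements TTCAAA and ATTGG. The windows were Kif11 at chr19:37376312-37376411 on the plus strand, Kif15 at chr9:122951011-122951110 on the plus strand, Kif22 at chr7:127042391-127042490 on the minus strand, Kifc1 at chr17:33890604-33890703 on the minus strand, Kif23 at chr9:61946770-61946869 on the minus strand. The others were Kif18b at chr11:102925095-102925194 on the minus strand, Kif20b at chr19:34922288-34922387 on the plus strand, Kif4 at chrX:100625995-100626094 on the plus strand, Kif26b at chr1:178529055-178529154 on the plus strand and Kif5c at chr2:49619216-49619315 on the plus strand.
Kif11: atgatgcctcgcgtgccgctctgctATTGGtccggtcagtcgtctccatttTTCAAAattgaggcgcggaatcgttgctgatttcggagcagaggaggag
Kif15: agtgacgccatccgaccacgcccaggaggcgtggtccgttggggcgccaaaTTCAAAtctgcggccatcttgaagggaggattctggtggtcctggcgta
Kif22: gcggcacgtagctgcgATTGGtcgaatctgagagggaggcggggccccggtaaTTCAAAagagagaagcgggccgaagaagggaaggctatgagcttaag
Kifc1: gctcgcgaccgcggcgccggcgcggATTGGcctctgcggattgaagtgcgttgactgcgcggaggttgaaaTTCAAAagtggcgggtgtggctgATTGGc
Kif23: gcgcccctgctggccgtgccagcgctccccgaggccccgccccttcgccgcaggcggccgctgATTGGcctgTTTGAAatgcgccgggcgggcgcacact
Kif18b: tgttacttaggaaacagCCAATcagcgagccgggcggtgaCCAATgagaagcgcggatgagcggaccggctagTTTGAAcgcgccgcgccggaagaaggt
Kif20b: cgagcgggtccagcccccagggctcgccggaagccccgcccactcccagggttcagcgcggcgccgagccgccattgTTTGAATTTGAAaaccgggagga
Kif4: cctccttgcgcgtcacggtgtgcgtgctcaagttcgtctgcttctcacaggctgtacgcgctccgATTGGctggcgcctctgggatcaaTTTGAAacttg
Kif26b: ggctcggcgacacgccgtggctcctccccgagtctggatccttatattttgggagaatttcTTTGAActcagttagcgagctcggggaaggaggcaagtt
Kif5c: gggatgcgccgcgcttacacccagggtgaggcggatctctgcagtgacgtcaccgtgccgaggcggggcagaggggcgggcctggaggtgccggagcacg
In Kif11, Kif15 and Kif22 the core began 19, 19 and 17 bases before the start. In the other 5 mitotic windows it began after the start, and Kif20b held a pair of cores end to end. Kif18a was the mitotic kinesin with a window but no TTTGAA in it, and it also had no CCAAT.

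**Figure D2:**
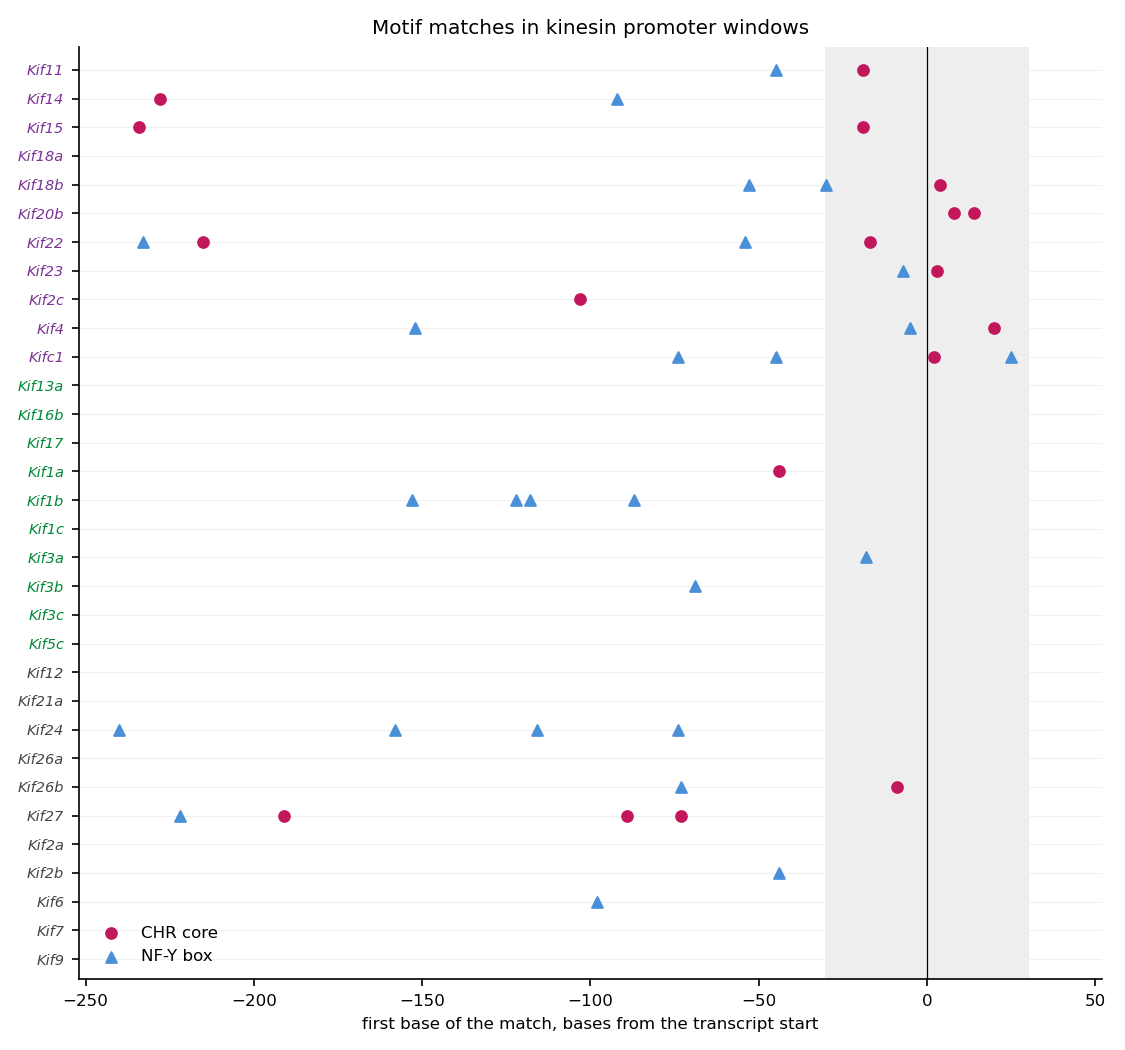
Position of each TTTGAA (CHR core) and CCAAT (NF-Y box) match, on either strand, in bases from the RefSeq start site (horizontal axis) for each kinesin with a promoter window (vertical axis, by role), with the range within 30 bases of the start shaded. TTTGAA matches of mitotic kinesins gather near the start, while those of transport and other kinesins are few.

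Outside the mitotic set, Kif5c showed the largest difference between residual and primary cells. Kif5c is a heavy chain of conventional kinesin, best known as a cargo motor in neurons. It read 7.54, 6.61 and 5.72 in residual cells, against 3.42, 4.07, 3.92 and 4.02 in primary cells. All residual arrays were above all primary arrays, of which 2 were above background, and the residual arrays spread more widely than those of any other group. The log2 difference was 2.76 ± 0.44 (SE), with an adjusted p of 0.00183 in limma.

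The other heavy chains of the same motor did not share this. Kif5b, the heavy chain found in most cell types, read 8.95, 9.22 and 9.06 in residual cells, against 9.53, 9.25, 9.48 and 9.53 in primary cells. Its residual arrays all lay below its primary arrays, by 0.37 on the log2 scale, and it was not called (adjusted p = 0.126 in limma). Kif5a, the mostly neuronal heavy chain, was at background on all residual arrays and had a log2 difference of 0.03 (adjusted p = 0.966).

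Markers of neurons and Schwann cells also differed. Of 10 such markers none was lower in residual cells and 3 were higher, against 4.81% of all genes, among them S100b by 4.59 and Sox10 by 1.14 on the log2 scale (adjusted p = 8.53e-05 and 0.00469 in limma). The summed signal of the 10 was 1311 to 2072 in residual cells, 293 to 750 in recurrent cells and 167 to 224 in primary cells. The neuronal markers Elavl4, Snap25, Stmn2 and Syt1 were at background on all residual arrays. The part of these cells in the Kif5c value was not tested.

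Kif16b, which moves early endosomes, was higher in residual cells. It read 6.47, 6.71 and 6.82 in residual cells, against 5.99, 6.26, 6.24 and 6.07 in primary cells, with no overlap and a log2 difference of 0.53 ± 0.13 (SE, adjusted p = 0.0234 in limma). The call was lost when residual array 2 or 3, or primary array 1 or 4, was left out, and when arrays were centred on their medians. Kif3a, a subunit of the motor that builds cilia, was lower, with 6.85, 6.85 and 6.83 in residual cells against 7.55, 7.29, 7.41 and 7.35 in primary cells. The residual arrays nearly coincided below the primary range, at a log2 difference of -0.56 ± 0.11 (SE, adjusted p = 0.00725). Its partner Kif3b read 7.16, 6.08 and 6.36 in residual cells and 7.24, 7.14, 7.45 and 7.11 in primary cells. Residual array 1 overlapped the primary range, and Kif3b was not called (log2 difference -0.70, adjusted p = 0.104) unless that array was left out (-1.02, adjusted p = 0.0179). Kif1c, a vesicle motor, lay lower in residual cells without overlap and was not called (-0.52, adjusted p = 0.0570).

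Among the other kinesins, Kif26b was higher in residual cells. Kif26b is an atypical member that lacks normal motor activity and is known for roles in kidney development and in Wnt5a-Ror signalling. It read 8.29, 8.05 and 7.82 in residual cells, against 7.27, 6.85, 7.53 and 7.27 in primary cells, and the groups did not overlap. The log2 difference was 0.82 ± 0.22 (SE, adjusted p = 0.0331 in limma), and leaving out residual array 1 or 2 or primary array 1, 2 or 4 ended the call. The part of the fibroblast markers given above in this value was not tested.

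Kif2a, a relative of Kif2c that takes microtubule ends apart at spindle poles and in neurons, was lower in residual cells. It read 7.66, 7.66 and 7.51 in residual cells, against 8.06, 8.17, 8.10 and 8.30 in primary cells, with no overlap. The log2 difference was -0.55 ± 0.16 (SE, adjusted p = 0.0404 in limma). That call was lost under 12 of 21 alternatives, with an adjusted p of up to 0.134, among them leaving out any 1 residual or primary array, or recurrent array 1 or 2.

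The remaining transport and other kinesins were not called. Kif1b, which moves mitochondria and synaptic vesicle precursors, averaged 6.55 ± 0.15 in residual cells (SD, n = 3) and 6.26 ± 0.33 in primary cells (SD, n = 4), with an adjusted p of 0.349 in limma. Kif7, which sits at the tip of the cilium and regulates hedgehog signalling, averaged 4.40 ± 0.24 in residual and 4.19 ± 0.19 in primary cells (adjusted p = 0.438). Kif24, which restrains the growth of cilia in cycling cells, averaged 4.64 ± 0.10 in residual and 4.85 ± 0.14 in primary cells (adjusted p = 0.355). None of these 3 differences passed the test. The 12 transport kinesins that were not called had log2 differences from -0.70 to 0.42, and the 11 other kinesins from -0.21 to 0.49. Kif1a, Kif6, Kif9, Kif12, Kif21a, Kif27 and Kif2b were within background on all 11 arrays, so a change in them could not have been seen. Kif6, Kif9 and Kif27 are known from motile cilia and flagella. Of 8 ciliated cell markers none was called in any comparison (0 of 8 in each). The shares of all genes called were 12.4% in residual against primary, 5.78% in recurrent against residual and 1.8% in recurrent against primary cells. Dnah5, Dnah9, Dnaic1, Foxj1 and Tekt1 of this list were at background on all 11 arrays, so a change in them could not have been seen either. By contrast 11 of 15 transport kinesins, 4 of 13 other kinesins and, of the 12 mitotic ones, Kifc1 were above background on all 11 arrays.

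**Figure D3:**
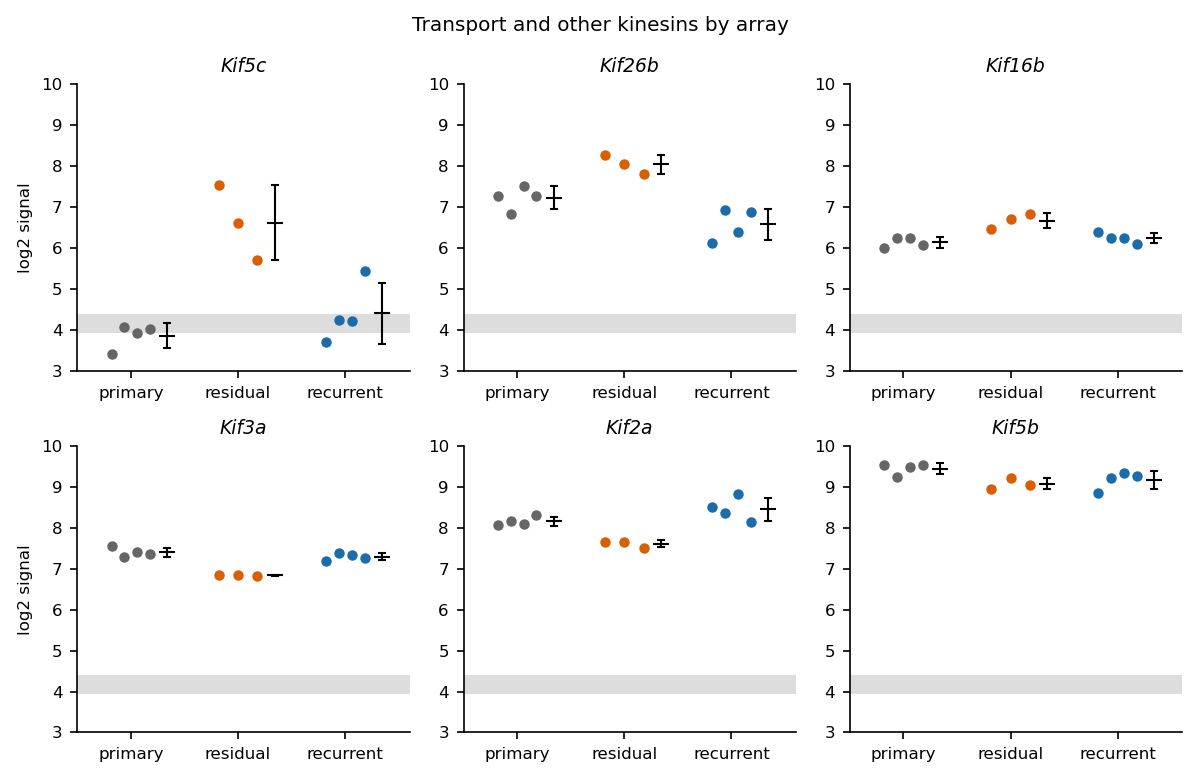
Log2 signal (vertical axis) of 6 kinesins outside the mitotic set, by group. Points are arrays, the bar beside them is the group mean and SD, and the grey band is the background range. Kif5c and Kif26b are highest in residual cells, and Kif3a and Kif2a are lowest there.

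In recurrent against residual cells the mitotic kinesins moved the other way, and since both comparisons share the residual arrays their values are set side by side only. All 12 were higher in recurrent cells, against 3.58% of all genes that were called higher (limma, adjusted p under 0.05). Their median log2 difference was 2.10, or 1.83 with the 7 at their bounds, where that of all genes was -0.03. For 11 of 12 the groups did not overlap, against 8.18% of all genes that were higher without overlap. Called lower were 2.19% of all genes, and no mitotic kinesin. Of Kif2a, Kif2b and Kif24, which can also be counted as mitotic, Kif2a was called higher and the others were not called. Without residual array 2, 11 of the 12 were called higher, the exception being Kifc1. Across the family 3 kinesins were lower without overlap, against 7.32% of all genes, and 17 of 40 had an unadjusted p under 0.05, against 19.7%.

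Kif23 read 7.05, 6.25, 6.92 and 7.33 in recurrent cells, all far above the residual arrays given above. It averaged 6.89 in recurrent and 3.11 in residual cells and was at least 5.76-fold higher (adjusted p = 4.03e-06 in limma). Kif20a read 6.73, 6.25, 6.50 and 6.90 in recurrent cells and was at least 4.69-fold higher (means 6.59 in recurrent and 4.11 in residual cells, adjusted p = 1.52e-05). Kif11, with 6.59, 6.44, 6.68 and 6.67 in recurrent cells, had a log2 difference of 2.51 (adjusted p = 6.74e-06). These 3 genes, with roles from pole separation to the final cut, all stood well clear of background on each recurrent array.

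The other mitotic kinesins followed. Kif4 read 6.21, 5.61, 6.18 and 6.46 in recurrent cells (log2 difference 2.25, adjusted p = 0.000139 in limma). Kif15 read 5.998, 5.81, 5.89 and 6.70 in recurrent cells (2.18, adjusted p = 0.00142). Kif20b read 6.56, 6.17, 6.42 and 6.61 in recurrent cells (2.02, adjusted p = 5.1e-06). For these 3 no recurrent array reached down to the residual range. Kif18b, with 6.34, 5.73, 5.87 and 6.07 in recurrent cells, was at least 3.12-fold higher (means 6.001 in recurrent and 3.80 in residual cells, adjusted p = 0.000369). Kif22, with 5.30, 4.98, 5.999 and 6.09 in recurrent cells, was at least 2.35-fold higher (means 5.59 in recurrent and 3.72 in residual cells, adjusted p = 0.00412). Kif2c, with 5.82, 5.001, 6.05 and 5.43 in recurrent cells, was at least 2.32-fold higher (means 5.58 in recurrent and 3.67 in residual cells, adjusted p = 0.000994). All recurrent arrays of these 3 genes were above background. The smallest bounds belonged to Kif14 and Kif18a. Kif14, with 5.66, 5.22, 5.07 and 5.41 in recurrent cells, was at least 1.97-fold higher (means 5.34 in recurrent and 3.73 in residual cells, adjusted p = 0.000745). Kif18a, with 5.07, 4.58, 4.29 and 4.70 in recurrent cells, was at least 1.23-fold higher by its means (4.66 in recurrent and 3.52 in residual cells). The adjusted p of its measured difference was 0.0106 in limma. Its recurrent array 3, at 4.29, lay below the olfactory 95th percentile of every residual array (4.34 to 4.38).

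Kifc1 read 5.96, 6.17, 5.80 and 6.09 in recurrent cells, and residual array 1 touched the bottom of that range. Its log2 difference was 1.03 ± 0.27 (SE, adjusted p = 0.0443 in limma), and 1.44 with an adjusted p of 0.000678 when residual array 1 was left out. The call was lost under 15 of 21 alternatives, with an adjusted p of up to 0.151, among them leaving out any 1 array other than residual array 1. Kifc5b was not called (0.59, adjusted p = 0.510).

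Of the transport kinesins, Kif5c was lower and Kif3a higher in recurrent than in residual cells. Kif5c read 3.70, 4.24, 4.23 and 5.45 in recurrent cells, where 3 of 4 arrays were above background and array 4, the highest, still lay below all residual arrays. Its log2 difference was -2.22 (adjusted p = 0.0130 in limma), and in a fit of these 2 groups alone the adjusted p was 0.0682. Kif3a read 7.18, 7.39, 7.33 and 7.27 in recurrent cells, with no overlap, at a log2 difference of 0.45 (adjusted p = 0.0371). That call was lost under 14 of 21 alternatives, with an adjusted p of up to 0.114, among them leaving out any 1 residual array, recurrent array 2, 3 or 4 or primary array 3 or 4. Kif16b, with 6.40, 6.26, 6.26 and 6.10 in recurrent cells, was not called (-0.42, adjusted p = 0.0997).

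Kif26b read 6.12, 6.93, 6.41 and 6.87 in recurrent cells, all below the residual arrays, at a log2 difference of -1.47 (adjusted p = 0.00287 in limma). The summed signal of the fibroblast markers was 10442 to 16152 in recurrent cells and 10302 to 18412 in residual cells. Of these 14 markers 1 was called lower, against 2.19% of all genes, and none higher. Their part in the Kif26b value was not tested. Kif2a read 8.50, 8.36, 8.82 and 8.15 in recurrent cells, all above the residual arrays, at a log2 difference of 0.84 (adjusted p = 0.00862). No other transport or other kinesin was called in this comparison. The 13 uncalled transport kinesins had differences from -0.42 to 0.28 and the 11 uncalled other kinesins from -0.40 to 0.22 on the log2 scale.

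**Figure D4:**
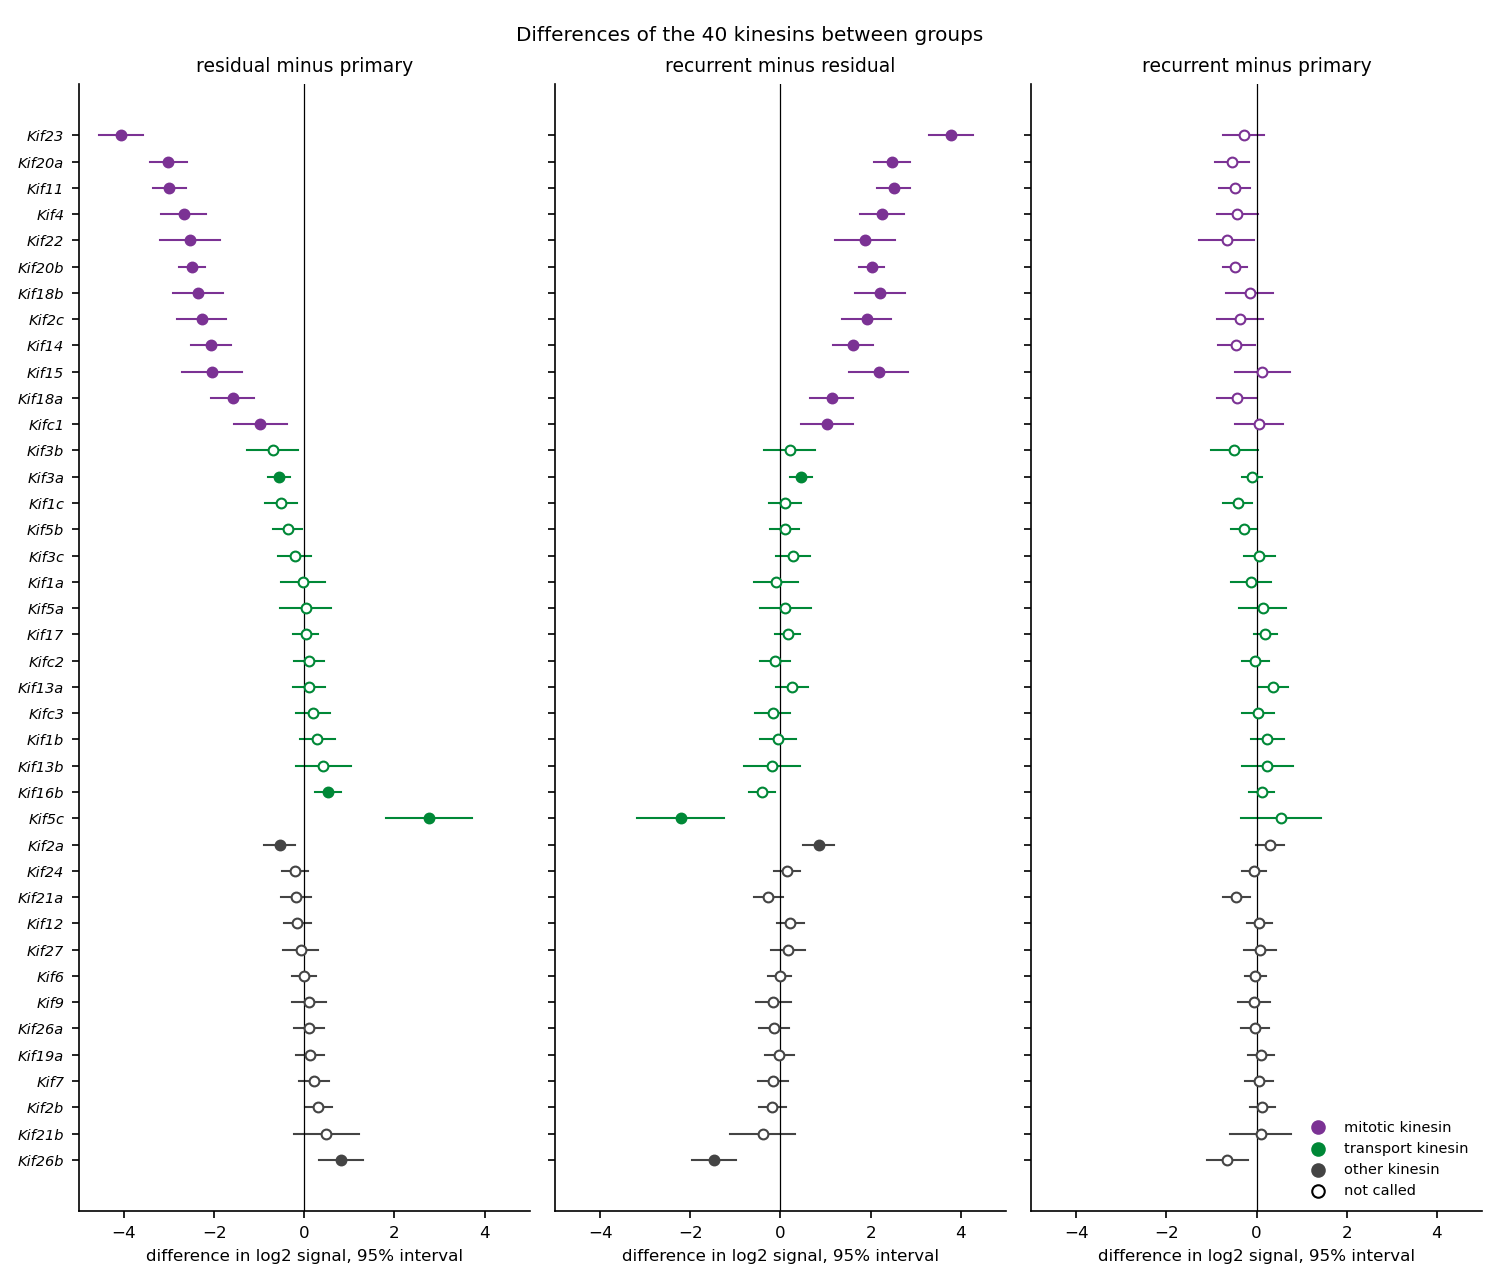
Log2 difference (horizontal axis) of each of the 40 kinesins (vertical axis, by role) in 3 comparisons, with 95% intervals from the limma fit. Filled points passed an adjusted p under 0.05. All 12 mitotic kinesins are left of 0 in residual against primary cells and right of 0 in recurrent against residual cells, and no point is filled in recurrent against primary cells.

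In recurrent against primary cells, 0 of the 40 kinesins were called by limma, where 1.8% of all genes were called and 0.986% were called lower. At an unadjusted p under 0.05 there were 10 of 40, of which 6 were mitotic, 2 transport and 2 other kinesins, against 13.6% of all genes. The mitotic kinesins had a median log2 difference of -0.43, with 10 of 12 below 0, while that of all genes was -0.01. Kif11 and Kif20b were the mitotic kinesins whose recurrent arrays all lay below the primary arrays, and across the family 4 were lower and 1 was higher without overlap, against 5.38% and 3.64% of all genes.

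Kif20b came closest to a call, at -0.47 with a 95% interval from -0.74 to -0.21 (adjusted p = 0.0803 in limma), and was called with arrays centred on their medians (-0.53, adjusted p = 0.0479) or weighted (-0.50, adjusted p = 0.0498). Kif22 had the lowest difference, -0.67 with an interval from -1.28 to -0.05 (adjusted p = 0.319). For Kif23 it was -0.29 with an interval from -0.75 to 0.17 (adjusted p = 0.619). Kif15 and Kifc1 lay slightly above 0, at 0.13 and 0.05, and the interval for Kif15 ran from -0.48 to 0.74. With intervals of this width, equal levels in the 2 groups were not shown. Outside the mitotic set, Kif26b was at -0.65 (adjusted p = 0.162) and Kif1c at -0.42 (adjusted p = 0.212). Of the 14 fibroblast markers 7 were called higher in recurrent than in primary cells, against 0.818% of all genes, and none lower. Their part in the Kif26b value was not tested here either.

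**Figure D5:**
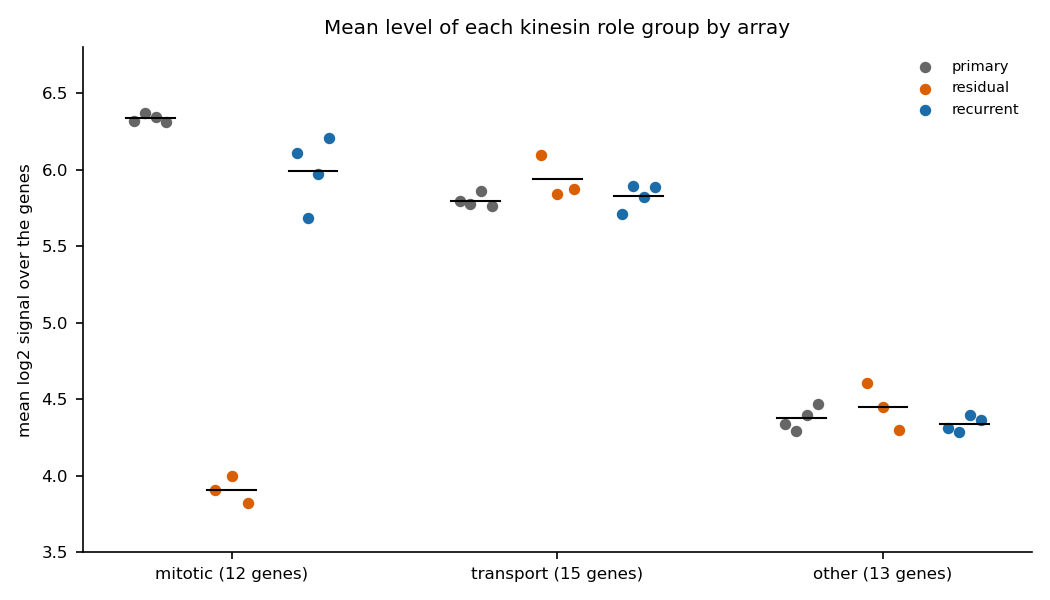
Mean log2 signal over the 12 mitotic, 15 transport and 13 other kinesins (vertical axis), by group. Points are arrays and lines are group means. The mitotic mean is between 3.82 and 4.00 on the 3 residual arrays and at least 5.68 on all others, while groups overlap for transport and other kinesins.

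Averaged over the 12 mitotic kinesins, log2 signal was 3.91 ± 0.09 in residual cells (SD, n = 3), 5.99 ± 0.23 in recurrent cells and 6.33 ± 0.03 in primary cells (SD, n = 4 each). Recurrent arrays differed more among themselves than primary arrays, and recurrent array 2, at 5.68, was the lowest in its group for 9 of the 12 genes. The 15 transport kinesins averaged 5.93 ± 0.14 in residual, 5.83 ± 0.08 in recurrent and 5.80 ± 0.04 in primary cells. The 13 other kinesins averaged 4.45 ± 0.15 in residual, 4.34 ± 0.05 in recurrent and 4.38 ± 0.08 in primary cells.

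Genes that work with mitotic kinesins moved with them. Of 20 such partners, among them passenger complex, midzone and spindle assembly genes, 19 were lower in residual than in primary cells, against 7.61% of all genes, and 18 were higher in recurrent than in residual cells, against 3.58%. Their median log2 differences were -2.995 and 2.365. Anln, a scaffold of the contractile ring, had log2 differences of -4.90 in residual against primary cells and 4.53 in recurrent against residual cells (adjusted p = 5.13e-07 and 2.7e-06 in limma). Birc5, the passenger complex subunit survivin, had -4.20 and 3.74 in these comparisons. Plk1, the mitotic kinase that acts at poles and midzone, had -3.80 in residual against primary cells, and Prc1, which bundles midzone microtubules and binds Kif4 and Kif14, had 3.29 in recurrent against residual cells. Cep55, which brings the abscission machinery to the midbody, was at background on all residual arrays and was at least 5.21-fold lower there than in primary cells and at least 3.46-fold higher in recurrent than in residual cells. Numa1, a spindle pole protein also present in resting nuclei, was called in no comparison. Tpx2, a spindle assembly factor that also acts with Kif15, was the partner called between recurrent and primary cells (-0.86, adjusted p = 0.00625). That is 1 of 20 called lower, against 0.986% of all genes. In this comparison 18 of the 20 partners lay below 0 and 2 above it, with a median log2 difference of -0.47. An unadjusted p under 0.05 in limma was found for 9 of 20, against 13.6% of all genes.

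Cenpe, a kinesin of the kinetochore whose symbol keeps it out of the 40, read 4.38, 4.98 and 4.52 in residual cells, 7.72, 7.10, 7.45 and 7.85 in recurrent cells, and 7.79, 7.43, 7.87 and 7.96 in primary cells. Residual arrays were far below both other groups. Its log2 differences were -3.14 in residual against primary cells (adjusted p = 3.8e-06 in limma), 2.90 in recurrent against residual cells and -0.23 in recurrent against primary cells, where it was not called (adjusted p = 0.680).

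Few cargo adaptors and light chains passed the test. Of 20 transport partners 2 were higher and none was lower in residual against primary cells, against 4.81% and 7.61% of all genes, and 6 had an unadjusted p under 0.05, against 25.8%. Mapk8ip1, a scaffold that ties cargo to kinesin light chains, averaged 7.09 ± 0.47 in residual cells (SD, n = 3) and 5.77 ± 0.23 in primary cells (SD, n = 4), a log2 difference of 1.32 (adjusted p = 0.00458 in limma). Klc3, a light chain, was higher by 0.50 (adjusted p = 0.0304). In recurrent against residual cells 0 of 20 were called, with 2 at an unadjusted p under 0.05, against 19.7% of all genes, and the smallest adjusted p for Mapk8ip1 (-0.87, adjusted p = 0.0615). In recurrent against primary cells 0 of 20 were called, and 0 at an unadjusted p under 0.05, against 13.6% of all genes.

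Dynein and dynactin, the motor complex that runs the other way along microtubules, had 19 measured subunits and adaptors. None was called by limma in any of the 3 comparisons, with 5, 3 and 1 at an unadjusted p under 0.05 in residual against primary, recurrent against residual and recurrent against primary cells, against 25.8%, 19.7% and 13.6% of all genes. The smallest adjusted p values in the first of these were 0.0747 for Dync1li1 (-0.37) and 0.0812 for Dynlt3 (-0.31). Of 20 genes of intraflagellar transport, the cargo trains that Kif3a and Kif3b pull in cilia, 3 were lower in residual than in primary cells, against 7.61% of all genes, namely Ift22 (-0.70), Traf3ip1 (-0.67) and Ift74 (-0.63). In recurrent against residual cells 2 were higher, against 3.58% of all genes, namely Dync2li1 (0.85) and Ift74 (0.83), and in recurrent against primary cells 0 were called, with 3 at an unadjusted p under 0.05, against 13.6% of all genes.

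Of 15 tubulins, the track on which kinesins run, 1 was higher and 4 were lower in residual than in primary cells, against 4.81% and 7.61% of all genes. Tubb3, the beta tubulin of neurons, averaged 7.80 ± 0.26 in residual cells (SD, n = 3), 4.42 ± 0.80 in recurrent cells and 6.15 ± 0.33 in primary cells (SD, n = 4 each). It was higher in residual than in primary cells by 1.65 (adjusted p = 0.0115 in limma), lower in recurrent than in residual cells (-3.38, adjusted p = 0.000231) and lower in recurrent than in primary cells (-1.73, adjusted p = 0.0257). The 4 tubulins lower in residual cells were Tubb6 (-1.63), Tuba1c (-1.11), Tubg1, the gamma tubulin that seeds microtubules (-0.96), and Tubb5 (-0.55). Tubb5 was higher in recurrent than in residual cells (0.61, adjusted p = 0.0143).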

How the data were processed

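Total RNA of 11 samples was labelled with biotin and hybridised to 11 Affymetrix arrays. The deposited table holds log2 signals, made with RMA and R 3.0.2 per the submitters' processing notes, with 1 probe set per Entrez Gene identifier, and RMA compresses differences between dim signals. The values were used as deposited. Of 24479 probe sets, 23281 were named from the platform's probe table and 556 through RefSeq, and 642 stayed unnamed. For a symbol with 2 probe sets the brighter was kept. A linear model of 3 groups was fitted to all 11 arrays with limma 3.58.1 in R 4.3.3, leaving 8 residual degrees of freedom to which the prior added 3.46. Its two-sided moderated p-values were corrected over 23835 genes (Benjamini-Hochberg), and genes under 0.05 after correction count as called. The procedure was tested on simulated data. The number of arrays limits the precision.

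The members and lists were chosen with earlier results of these data known. All mitotic kinesins and each other kinesin called at least once were named, and from each partner list the called genes of largest change, at most 4 per comparison, or where none was called at most 2 of smallest p. Kif1b, Kif1c, Kif3b, Kif5a, Kif5b, Kif7 and Kif24 were described beside them after their values were seen, as were Numa1 and the marker genes named at background. The share of all genes called is given beside counts of kinesins and of their partners. The 21 alternatives were a fit of 2 groups, a replicate block, centring, quantile or interquartile scaling, and a filter on dim genes. They also held a trended prior, a robust prior, array weights (statmod 1.5.0), unnamed probe sets included, and leaving out each array. Other thresholds and roles were tried in addition to these 21. Some marker genes are not reported here.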

Additional observations from a re-analysis of the deposited data

Results flagged for a closer look

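In 80 groups of 4 arrays, the gap between a lone value and the next was set against the range of the group. By this ratio 13 were picked out, where chance picks about 1 in 20 among values without ties, and no mitotic kinesin was among them. A small gap can be picked out where the other values lie close together. On primary arrays these were Kif1a on array 2 (3.90), Kif1b on array 2 (5.77, the others from 6.36 to 6.45), Kif5b on array 2 (9.25, the others from 9.48 to 9.53), Kif24 on array 4 (5.05), Kif2b on array 1 (2.29) and Kif7 on array 1 (3.91). On recurrent arrays they were Kif12 on array 2 (3.77), Kif19a on array 2 (4.23), Kif21a on array 2 (2.59), Kifc3 on array 2 (5.44, the others from 5.58 to 5.61), Kif27 on array 4 (3.29), Kif3c on array 3 (6.50, the others from 5.92 to 5.96) and Kif9 on array 3 (3.43). Kif1a, Kif2b, Kif9, Kif12, Kif21a and Kif27 were within background on all arrays. For Kif1a and Kif9 the other arrays of the group had identical values, 3.54 and 3.45. The ratio was then fixed at its maximum whatever the gap, and the chance rate does not apply. Groups of 3 residual arrays were not tested.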

How the results depend on the processing

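Of 33 called results for single kinesins, 25 stayed called under all 21 alternatives of fit, scaling or arrays used, among them 22 of 24 for mitotic kinesins, where the exceptions were both for Kifc1, and none changed direction. Stricter thresholds are not among these 21. At an adjusted p under 0.01, Kifc1 was lost in both comparisons and Kif18a in recurrent against residual cells. With a 2-fold minimum Kifc1 was lost in residual against primary cells. In recurrent against primary cells the count of kinesins called, 0, was 1 (Kif20b, a mitotic kinesin lower) with arrays centred on their medians or weighted. The small counts for transport and other kinesins moved most. Transport kinesins higher in recurrent than in residual cells (1) came to 0 in the fit of 2 groups, with the replicate block, with quantile or interquartile scaling, a trended prior, array weights, an adjusted p under 0.01 or a 2-fold minimum. Transport kinesins lower there (1) came to 0 in the fit of 2 groups and under 0.01. Other kinesins higher there (1) came to 0 in the fit of 2 groups, with a 2-fold minimum and with Kif2a, Kif2b and Kif24 counted as mitotic. In residual against primary cells, transport kinesins higher (2) came to 1 with the block, centring, 0.01 or a 2-fold minimum. Transport kinesins lower (1) came to 2 with centring or the filter on dim genes, through Kif1c, and to 0 with a 2-fold minimum. Other kinesins higher (1) came to 0 with the block, 0.01 or a 2-fold minimum, and other kinesins lower (1) to 0 with these, with quantile or interquartile scaling and with Kif2a counted as mitotic. The cause of these changes was not tested.

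With 1 array left out at a time, kinesins called numbered 13 to 17 in residual against primary cells, 14 to 15 in recurrent against residual cells and 0 to 0 in recurrent against primary cells. In residual against primary cells, mitotic kinesins lower numbered 11 to 12, transport kinesins higher 1 to 2 and lower 1 to 2, and other kinesins higher 0 to 1 and lower 0 to 1. In recurrent against residual cells, mitotic kinesins higher numbered 11 to 12 and transport kinesins higher 0 to 1. Leaving out recurrent array 1 added Kif1c, with an adjusted p of 0.0394 in residual against primary cells. Groups share replicate numbers, but arrays of the same number showed no sign of deviating together (correlations from -0.08 to 0.02). Arrays of different numbers gave correlations from -0.06 to 0.08. Such values cannot exclude a shared animal or batch, and the labels do not settle whether the numbers pair the arrays. The block result is therefore given above only as an alternative. Signals near background limit all values of the residual mitotic kinesins.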
